A study of Mus musculus with 9 samples.

Results

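The genes described here are the chemokines and a small set of named cytokines that changed in mouse esophageal epithelial organoids, which are cultures grown from the lining of the gullet. They were chosen by name from the union of the 3 tables of differential genes the authors deposited. A gene was taken where its symbol was Ccl or Cxcl followed by a digit, or was Cx3cl1, Tnf, Csf1, Csf2, Csf3, Il6, Il23a, Lif or Tslp. Of 8742 genes listed in at least 1 table, 16 met that rule: Cxcl1, Cxcl2, Cxcl3, Cxcl5, Cxcl16, Ccl2, Ccl6, Ccl20, Ccl27a, Cx3cl1, Tnf, Il23a, Tslp, Lif, Csf1 and Csf3. The same names match 46 protein-coding symbols in the GENCODE M21 annotation of GRCm38, so 30 were not listed, Il6 and Csf2 among them. The tables hold genes that the authors called, so an unlisted gene was not called, which says nothing of its level.

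Total RNA was collected on day 7 after seeding from 9 untreated organoid cultures in 3 groups of 3 libraries. PCN is labelled as a knockout of Trp53, Cdkn2a and Notch1, PN as a knockout of Trp53 and Notch1, and WT as wild type. Trp53 encodes the tumour suppressor p53, Cdkn2a encodes p16INK4a and p19ARF, which restrain the cell cycle, and Notch1 encodes a receptor that drives squamous differentiation. PN carries the Trp53 and Notch1 knockouts that PCN also carries, so PCN against PN is labelled as differing by Cdkn2a. The labels do not say how the knockouts were made, whether a line is 1 clone, or whether the libraries came from separate animals or separate cultures, so the p-values measure the spread between these libraries only.

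Levels are given as CPM, the count scaled to 1000000 of the library size that underlies the authors' FPKM, fragments scaled to gene length and library size. Those sizes were 17422590 to 20198041 in PCN, 16857744 to 18912526 in PN and 14695420 to 15093994 in WT. Trp53 stood at 2.53 to 3.96 CPM in PCN and 2.27 to 3.24 CPM in PN, against 118 to 121 CPM in WT. Notch1 stood at 66.5 to 76.9 CPM in PCN and 140.5 to 153.9 CPM in PN, against 213 to 277 CPM in WT. Cdkn2a RNA went against its label, at 62.4 to 70.2 CPM in PCN, 21.5 to 22.7 CPM in PN and 6.49 to 10.3 CPM in WT. Reads summed along the gene cannot tell an edited message from an intact one, so the group is called PCN-labelled below.

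All 9 markers of stratified squamous epithelium were listed, and the 7 with counts in every library summed to 10326 to 10680 CPM in PCN-labelled libraries, 8615 to 8974 CPM in PN and 30286 to 32369 CPM in WT. Of 17 leukocyte markers, 3 were listed (Cd68, S100a8 and S100a9). The 2 of them with counts in every library summed to 20.9 to 24.4 CPM in PCN-labelled libraries, 32.3 to 35.7 CPM in PN and 107 to 133 CPM in WT. S100a8, which is not in that sum and has no values in WT, went the other way between the knockout-labelled groups. It averaged 1.76 CPM in PCN-labelled libraries and 0.423 CPM in PN, and rose by 2.07 ± 0.38 on the log2 scale (edgeR adjusted p = 7.34e-05). The defining leukocyte gene Ptprc and all 8 fibroblast markers were not listed, and of 6 endothelial markers Esam was listed, at 4.56 to 6.03 CPM in PCN-labelled libraries, 4.65 to 5.99 CPM in PN and 5.63 to 11.7 CPM in WT. With Ptprc not listed, the leukocyte sum over 2 genes cannot show whether leukocytes were present or lost. The epithelial sum was carried in WT by Krt13 and Krt4, keratins of the upper layers, which averaged 2791 and 2206 CPM in PCN-labelled libraries, 2099 and 2501 CPM in PN, and 15876 and 11382.5 CPM in WT. Krt15 and Trp63, of the basal layer, went the other way, at 1644 and 649 CPM in PCN-labelled libraries, 731 and 698 CPM in PN, and 300.4 and 486 CPM in WT, and Krt5 and Sox2 are not in the sum. The summed levels of both lists were lower in knockout-labelled libraries than in WT, although single epithelial markers were not, and their part in the results below was not tested.

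Chemokines are small secreted proteins that guide white blood cells along a concentration gradient by binding G-protein-coupled receptors on their surface. They are named for the spacing of their first cysteines, as CC, CXC or CX3C, and epithelia release them within hours of injury or infection, mostly through the transcription factor NF-kB. CXC chemokines with a glutamate-leucine-arginine motif draw neutrophils through the receptor CXCR2, CC chemokines draw monocytes, dendritic cells and T cells, and the colony-stimulating factors support the growth and survival of granulocytes and macrophages.

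Most of these genes were highest in PCN-labelled organoids. In PCN-labelled against WT libraries 12 of the 16 were listed, all 12 higher, and edgeR's quasi-likelihood test called all 12. As background, 38.6% of the genes adjusted over were listed there, 47.8% of the listed genes were higher and 52.2% lower, and of those with enough counts for the fit edgeR called 98.6%, 47.3% higher and 51.3% lower. In PCN-labelled against PN libraries 13 were listed and called, again all higher. As background, 24.5% of genes were listed in that pair, 51.7% of those were higher and 48.3% lower, and of those in the fit edgeR called 98.9%, 51.0% higher and 47.9% lower. In PN against WT libraries 9 were listed, 6 higher and 3 lower, beside 38.1% of genes listed, 47.8% of those higher and 52.2% lower. There 6 had enough counts for the fit, of which edgeR called Cxcl1, Cxcl3, Ccl2 and Ccl27a higher and Cxcl16 and Lif lower, beside 99.3% of all genes in that fit called, 48.0% higher and 51.2% lower. The 16 were chosen from 8742 genes listed at least once, so their share listed cannot be set beside shares of all genes. Of those 8742 genes, 6678 were listed in PCN-labelled against WT, 3609 in PCN-labelled against PN and 6544 in PN against WT. Of the 46 symbols that fit the name rule, 12, 13 and 9 were listed in the same order.

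The median log2 fold change of the listed members in the authors' deposited tables was 3.98 in PCN-labelled against WT libraries, beside -0.28 over all genes of that table. It was 2.27 in PN against WT, beside -0.28 over all genes, and 1.71 in PCN-labelled against PN, beside 0.16. Csf3, Ccl20, Tnf, Cxcl2, Ccl2, Cxcl3 and Il23a held 0 to 10 counts over the WT group. Genes so near 0 in WT could hardly be listed against WT other than as higher and with a large fold. Their direction, and their part in the medians against WT, thus follow largely from the listing. Over the PN group Tnf, Cxcl2 and Il23a held 10, 20 and 23 counts, and Csf3 and Ccl20 held 32 and 36. Such low counts also left less room for a listing as lower in PCN-labelled against PN. The comparisons with WT use the same 3 WT libraries and so are not independent of each other. Genes entered the tables by the authors' test on these same libraries, so the refit is a description of their size and not a second line of evidence. Cxcl1, Csf3, Ccl2 and Ccl20 stood in all 3 tables, 10 members stood in 2, and Ccl6 and Ccl27a stood in PN against WT alone, so that their levels in PCN-labelled libraries were not analysed here.

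**Figure D1:**
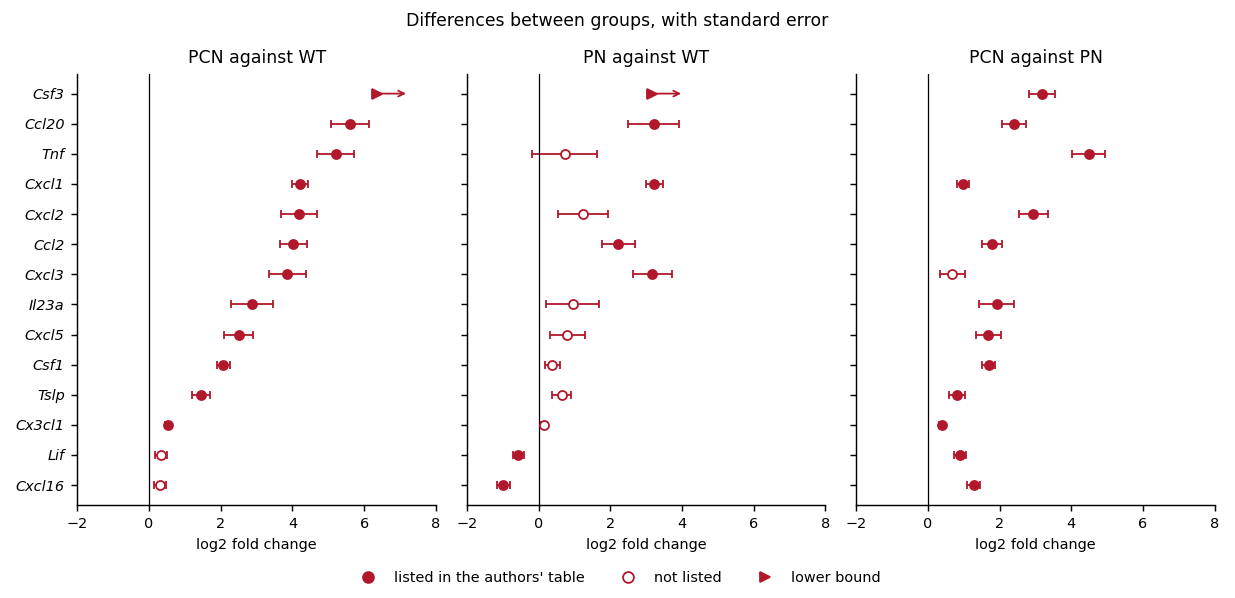
Log2 fold change with its standard error for the 14 members with counts in every library, from 1 fit over all 9 libraries, in PCN-labelled against WT, PN against WT and PCN-labelled against PN libraries. Filled points are listed in the authors' table of that pair, open points are not, and the triangles with arrows are lower bounds for Csf3, which had 0 counts in WT.

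Cxcl1, Cxcl2, Cxcl3 and Cxcl5, the 4 members that draw neutrophils, rose in PCN-labelled against WT libraries, whereas Ppbp, a CXC gene of that kind outside the name rule, fell. Cxcl1, a CXCR2 ligand and a neutrophil attractant of mouse epithelia (ENSMUSG00000029380, GRCm38 chr5:90891241-90893115, plus strand), had 27.5, 27.0 and 27.4 CPM in PCN-labelled libraries, 15.1, 13.2 and 13.4 CPM in PN, and 0.802, 1.09 and 2.52 CPM in WT. The groups did not overlap, and the WT library of replicate 3 stood above the others of its group. Cxcl1 rose by 4.21 ± 0.25 (SE) on the log2 scale in PCN-labelled against WT libraries, 18.5-fold, with an edgeR adjusted p of 5.18e-08, and by 3.24 ± 0.28 in PN against WT, 9.45-fold, with an edgeR adjusted p of 1.1e-06. Without WT replicate 3 those folds were 28.8 and 14.7, and without WT replicate 1 the log2 fold changes were 3.91 and 2.94. PCN-labelled libraries stood 1.97-fold above PN (log2 fold change 0.98 ± 0.09, edgeR adjusted p = 9.67e-10), and PN lay between the other groups.

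Cxcl2, a CXCR2 ligand best known from macrophages (ENSMUSG00000058427, chr5:90903871-90905938), showed another pattern. It had 3.42, 1.95 and 3.44 CPM in PCN-labelled libraries, 0.593, 0.294 and 0.264 CPM in PN, and 0.0668, 0.136 and 0.265 CPM in WT. PN and WT met at their edges, at 0.264 and 0.265 CPM, and PCN-labelled libraries lay apart from both. Cxcl2 rose 18.1-fold in PCN-labelled against WT libraries (log2 fold change 4.18 ± 0.50, edgeR adjusted p = 1.22e-05). That ratio was 29.4 without WT replicate 3, which leaves 3 WT counts and a counting interval of 9.88 to 144 (exact, 95%, counting error only). Without WT replicate 1 Cxcl2 rose by 3.83 on the log2 scale in that comparison. It rose 7.66-fold in PCN-labelled against PN libraries (2.94 ± 0.37, edgeR adjusted p = 2.11e-07), and it was not listed in PN against WT, where the fit over all 9 libraries gave 1.24 ± 0.71.

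Cxcl3, another CXCR2 ligand (ENSMUSG00000029379, chr5:90786103-90789600), had 3.47, 2.30 and 4.19 CPM in PCN-labelled libraries, 2.91, 1.30 and 2.01 CPM in PN, and 0.0668, 0.136 and 0.464 CPM in WT. Here PCN-labelled and PN libraries overlapped and both lay above WT. Cxcl3 rose 14.5-fold in PCN-labelled against WT libraries (log2 fold change 3.86 ± 0.50, edgeR adjusted p = 2.54e-05) and 9.06-fold in PN against WT (3.18 ± 0.56, edgeR adjusted p = 0.000524). Without WT replicate 3 the WT group holds 3 counts, and the ratios became 33.1 (interval 11.1 to 162) and 20.4 (6.81 to 101). Without WT replicate 1 Cxcl3 rose by 3.435 and 2.758 on the log2 scale in the same order. It was not listed in PCN-labelled against PN, where the fit over all 9 libraries gave 0.68 ± 0.34.

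Cxcl5, a CXCR2 ligand made by epithelia (ENSMUSG00000029371, chr5:90759360-90761624), had 2.82, 2.30 and 3.28 CPM in PCN-labelled libraries, 0.593, 0.530 and 1.43 CPM in PN, and 0.668, 0.340 and 0.464 CPM in WT. PN and WT overlapped, with PN replicate 3 above the rest, and PCN-labelled libraries lay above both. It rose 5.65-fold in PCN-labelled against WT libraries (log2 fold change 2.50 ± 0.36, edgeR adjusted p = 7.67e-05) and 3.21-fold in PCN-labelled against PN (1.68 ± 0.32, edgeR adjusted p = 0.000136). Against PN the fold was 4.94 without PN replicate 3, and the lowest log2 fold change under any alternative was 1.44. In PN against WT, where Cxcl5 was not listed, the fit over all 9 libraries gave 0.81 ± 0.49.

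These 4 genes lie on the plus strand of chromosome 5 within 146.6 kb, between positions 90759360 and 90905938 of GRCm38, with Ppbp, Pf4 and Cxcl15 between them. Pf4 and Cxcl15 were not listed. Ppbp, which encodes the precursor of CXCL7, a neutrophil attractant known from platelets that also acts through CXCR2, and was chosen after its values were seen, went the other way: it had 24.1, 25.9 and 28.8 CPM in PCN-labelled libraries, 19.1, 16.8 and 28.6 CPM in PN, and 64.9, 53.8 and 67.5 CPM in WT. It fell by 1.24 ± 0.11 on the log2 scale in PCN-labelled against WT libraries (edgeR adjusted p = 5.14e-07) and by 1.52 ± 0.18 in PN against WT (edgeR adjusted p = 0.000117). In PCN-labelled against WT libraries Ppbp was thus lower while its neighbours Cxcl5 and Cxcl3 were higher. Cxcl1, Cxcl2 and Cxcl3 are close paralogs, and how the authors counted reads that match more than 1 gene is not given in the sources used here, so their separate levels are uncertain to that extent.

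**Figure D2:**
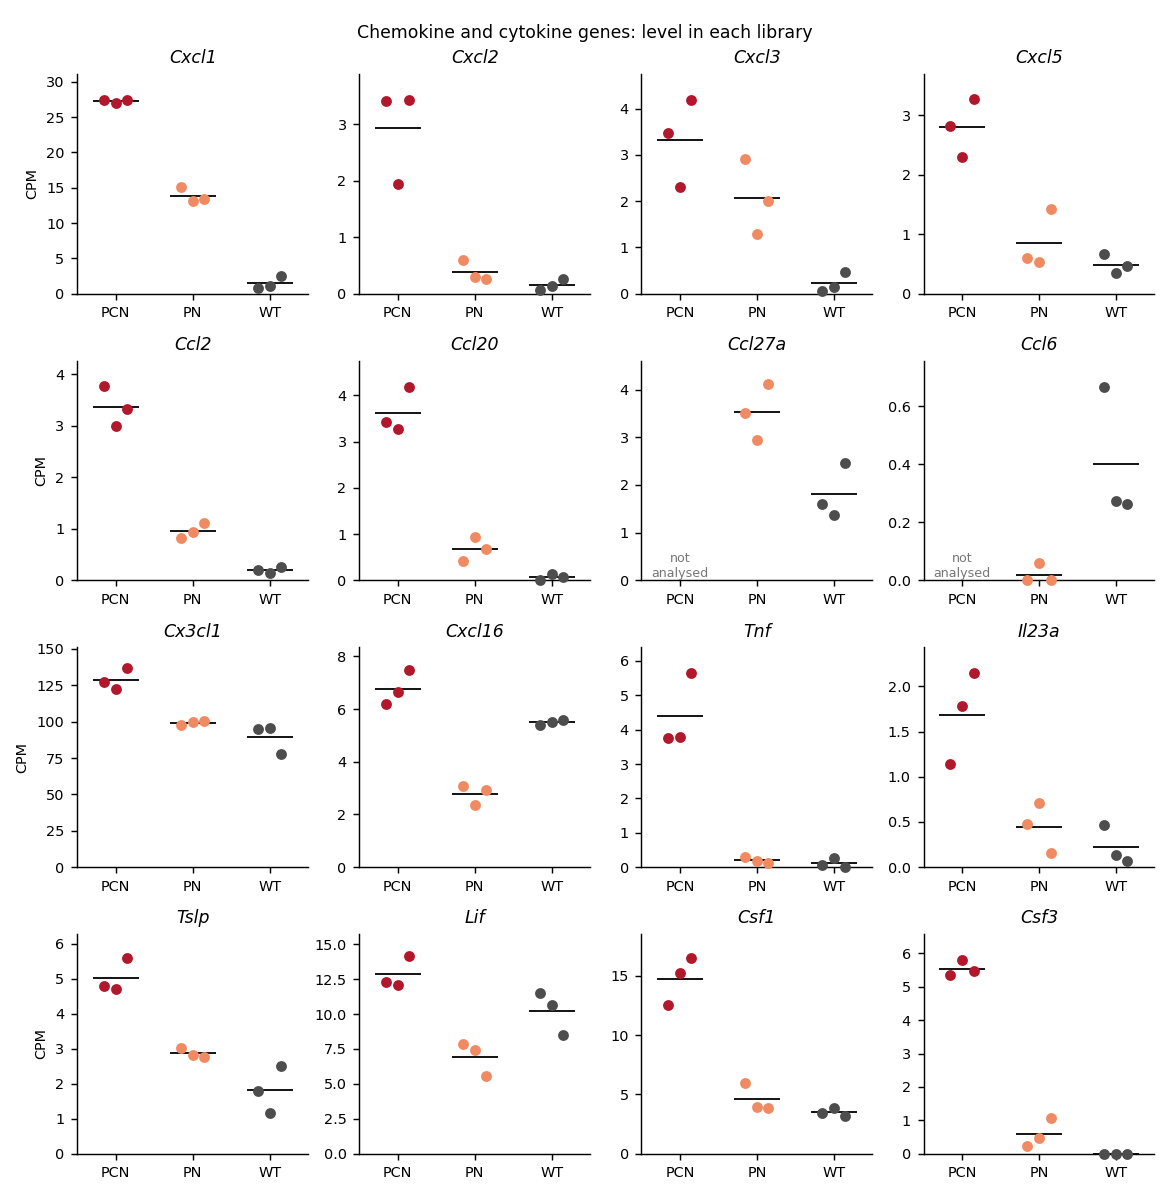
Level of each of the 16 genes in every library (points, CPM), with the group mean as a line, for PCN-labelled, PN and WT libraries. In Cxcl1 the 3 groups are stepped, in Cxcl3 PCN-labelled and PN libraries overlap, and in Tnf PN and WT both lie near 0. Ccl27a and Ccl6 have no PCN values because they stand in the PN against WT table alone.

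The promoters of Cxcl1, Cxcl2 and Cxcl3 are shown because these paralogs differ in where PN stood between PCN-labelled and WT libraries. Each run is the last 150 bases before the RefSeq start site on the gene's own strand (GRCm38.p6), at chr5:90891095-90891244 for Cxcl1, chr5:90903749-90903898 for Cxcl2 and chr5:90785951-90786100 for Cxcl3. Capitals mark matches to the NF-kB consensus, searched on both strands, and to TATAAA on the gene's strand.
Cxcl1: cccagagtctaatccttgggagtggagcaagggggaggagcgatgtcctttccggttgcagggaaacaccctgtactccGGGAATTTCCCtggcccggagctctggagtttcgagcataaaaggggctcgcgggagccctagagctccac
Cxcl2: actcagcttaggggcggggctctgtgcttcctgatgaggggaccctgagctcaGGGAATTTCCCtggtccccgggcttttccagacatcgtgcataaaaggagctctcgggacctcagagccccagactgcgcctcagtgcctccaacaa
Cxcl3: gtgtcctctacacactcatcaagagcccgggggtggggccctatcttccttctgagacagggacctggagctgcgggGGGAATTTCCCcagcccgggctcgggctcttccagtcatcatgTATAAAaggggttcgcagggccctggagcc

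All 3 hold the same letters GGGAATTTCCC, which are an NF-kB consensus match on each strand, 71, 97 and 73 bases before the start of Cxcl1, Cxcl2 and Cxcl3. Those letters, searched after they were seen here, stand in 12 of 32851 RefSeq windows of 250 bases before a start, or 0.0365%. The start of Cxcl2 in this table lies inside the gene as the authors' table places it, so its distance is counted from RefSeq. The shared letters are a description and carry no reading on binding.

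The receptor of Cxcl1, Cxcl2, Cxcl3 and Cxcl5 was expressed in the organoids and moved the other way. Cxcr2, chosen after its values were seen, had 4.55, 4.65 and 4.13 CPM in PCN-labelled libraries, 10.2, 8.01 and 10.7 CPM in PN, and 27.0, 30.5 and 34.5 CPM in WT, with no overlap between groups. It fell by 2.78 ± 0.14 on the log2 scale in PCN-labelled against WT libraries (edgeR adjusted p = 2.37e-09), by 1.66 ± 0.14 in PN against WT (edgeR adjusted p = 7.72e-07) and by 1.12 ± 0.16 in PCN-labelled against PN (edgeR adjusted p = 1.19e-06). In bulk RNA, fewer cells of a type and less RNA per cell cannot be told apart.

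Among the CC chemokines, Ccl2, which draws monocytes through the receptor CCR2 (ENSMUSG00000035385, chr11:82035571-82037453), had 3.76, 2.98 and 3.33 CPM in PCN-labelled libraries, 0.830, 0.942 and 1.11 CPM in PN, and 0.200, 0.136 and 0.265 CPM in WT. The groups did not overlap, and the WT level rests on 3, 2 and 4 counts. Ccl2 rose 16.2-fold in PCN-labelled against WT libraries (log2 fold change 4.02 ± 0.40, edgeR adjusted p = 2.01e-06). It rose 4.69-fold in PN against WT (2.23 ± 0.51, edgeR adjusted p = 0.00335) and 3.47-fold in PCN-labelled against PN (1.80 ± 0.27, edgeR adjusted p = 3.76e-06). The predicted gene Gm17268 overlaps Ccl2 on the opposite strand, and strand-aware counting is not stated, so reads of the pair cannot be told apart.

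Ccl20, the ligand of CCR6 on dendritic cells and IL-17-producing T cells (ENSMUSG00000026166, chr1:83116766-83119167), had 69, 57 and 78 counts (3.42, 3.27 and 4.19 CPM) in PCN-labelled libraries, 7, 16 and 13 counts in PN, and 0, 2 and 1 counts in WT. The groups did not overlap. PCN-labelled libraries stood 54.1-fold above WT, with an exact 95% counting interval of 18.3 to 265 because the WT group holds 3 counts in all, and the edgeR adjusted p was 1.06e-06. That ratio became 109 (19.4 to 4328) when WT replicate 2 was left out and 36.0 when WT replicate 1 was. PCN-labelled libraries stood 5.27-fold above PN (log2 fold change 2.40 ± 0.30, edgeR adjusted p = 1.61e-07). PN stood 10.2-fold above WT (3.22 to 51.7), with an adjusted p of 0.0152 in the authors' deposited table. Ccl20 had too few counts for the main edgeR fit of that pair, and the fit with no filter gave an edgeR adjusted p of 0.00541. Without WT replicate 2 the ratio was 20.5, and without WT replicate 1 it was 6.78.

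The promoter of Ccl20 is shown as that of the CC member with the highest ratio to WT among those with a window, at chr1:83116616-83116765 (plus strand, GRCm38.p6), with the NF-kB consensus match 80 bases before the start in capitals.
Ccl20: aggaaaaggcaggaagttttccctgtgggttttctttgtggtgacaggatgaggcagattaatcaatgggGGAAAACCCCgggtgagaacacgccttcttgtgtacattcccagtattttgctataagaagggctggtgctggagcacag

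The other CC members stood in PN against WT alone. Ccl27a, a keratinocyte chemokine that draws skin-homing T cells (ENSMUSG00000073888, chr4:41769467-41774247, minus strand), had 3.50, 2.94 and 4.12 CPM in PN and 1.60, 1.36 and 2.45 CPM in WT, with no overlap. It rose 1.96-fold (log2 fold change 0.97 ± 0.29, edgeR adjusted p = 0.0156), and the call was lost without PN replicate 3, WT replicate 1 or WT replicate 2 (edgeR adjusted p = 0.0783, 0.0517 and 0.0722). Ccl27a has near-identical copies in the mouse genome and overlaps Il11ra1 on the opposite strand, so its count is uncertain. Ccl6, a myeloid chemokine (ENSMUSG00000018927, chr11:83587882-83593087), had 0, 1 and 0 counts in PN and 10, 4 and 4 counts in WT. WT stood 21.2-fold above PN, with a counting interval of 3.35 to 884, and the adjusted p was 0.0267 in the authors' deposited table. Its counts were below the filter of the main fit, the edgeR adjusted p with no filter was 0.0108, and without PN replicate 2 WT was at least 4.79-fold higher than a floor of 3 counts over the PN group. Without PN replicate 3 the ratio was 13.6.

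Cx3cl1 and Cxcl16 are made as membrane-anchored proteins. Cx3cl1, or fractalkine, which binds CX3CR1 on monocytes and T cells and is shed by ADAM proteases (ENSMUSG00000031778, chr8:94772009-94782427), had 127, 123 and 137 CPM in PCN-labelled libraries, 97.6, 99.7 and 100.4 CPM in PN, and 95.2, 95.4 and 78.0 CPM in WT. PCN-labelled libraries lay above both other groups, and PN lay just above WT. Cx3cl1 rose 1.44-fold in PCN-labelled against WT libraries (log2 fold change 0.53 ± 0.09, edgeR adjusted p = 0.000292) and 1.30-fold in PCN-labelled against PN (0.38 ± 0.05, edgeR adjusted p = 1.49e-06). It was not listed in PN against WT, where the fit over all 9 libraries gave 0.15 ± 0.08.

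Cxcl16, the transmembrane ligand of CXCR6 (ENSMUSG00000018920, chr11:70453983-70459984, minus strand), was lowest in PN. It had 6.19, 6.66 and 7.46 CPM in PCN-labelled libraries, 3.08, 2.36 and 2.91 CPM in PN, and 5.41, 5.51 and 5.57 CPM in WT, with no overlap between groups. It fell by 0.97 ± 0.21 on the log2 scale in PN against WT (edgeR adjusted p = 0.00203) and rose 2.42-fold in PCN-labelled against PN libraries (1.28 ± 0.18, edgeR adjusted p = 2.19e-06). PCN-labelled against WT was not listed, and the fit over all 9 libraries gave 0.30 ± 0.17. Zmynd15 overlaps it on the opposite strand, so reads of the pair cannot be told apart.

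Of the cytokines, Tnf, the inflammatory cytokine that activates NF-kB through TNFR1 (ENSMUSG00000024401, chr17:35199381-35202007, minus strand), had 76, 66 and 105 counts (3.76, 3.79 and 5.64 CPM) in PCN-labelled libraries, 5, 3 and 2 counts in PN, and 1, 4 and 0 counts in WT. PN and WT overlapped near 0, and PCN-labelled libraries lay far above both. Tnf rose 22.4-fold in PCN-labelled against PN libraries (log2 fold change 4.48 ± 0.38, edgeR adjusted p = 8.69e-11), the highest fold of the 13 members listed in that pair. It rose 37.0-fold in PCN-labelled against WT (5.21 ± 0.53, edgeR adjusted p = 2.74e-06). Without WT replicate 2 the WT group holds 1 count, and the ratio was 132 with a counting interval of 23.5 to 5236. Without WT replicate 3 the log2 fold change against WT was 4.65. PN against WT was not listed, and the fit over all 9 libraries gave 0.73 ± 0.91.

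The promoter of Tnf is shown for contrast with the CXC genes, at chr17:35202008-35202157 (minus strand, GRCm38.p6). It holds TATAAA 29 bases before the start, in capitals, and no letters of the NF-kB consensus searched here stand in its 250-base window. Bases farther upstream and looser matches were not searched, so Tnf is not shown to lack NF-kB sites.
Tnf: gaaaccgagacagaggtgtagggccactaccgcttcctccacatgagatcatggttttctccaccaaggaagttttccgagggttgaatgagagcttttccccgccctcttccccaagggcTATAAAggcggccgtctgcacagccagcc

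Il23a, the p19 subunit of the IL-23 that sustains IL-17-producing T cells (ENSMUSG00000025383, chr10:128296139-128298752, minus strand), had 1.14, 1.78 and 2.15 CPM in PCN-labelled libraries, 0.475, 0.707 and 0.159 CPM in PN, and 0.468, 0.136 and 0.0663 CPM in WT. PN and WT overlapped and PCN-labelled libraries lay above both. It rose 7.33-fold in PCN-labelled against WT libraries (log2 fold change 2.87 ± 0.56, edgeR adjusted p = 0.000835) and 3.79-fold in PCN-labelled against PN (1.92 ± 0.42, edgeR adjusted p = 0.000642). Without WT replicate 1 the WT group holds 3 counts and the ratio to WT was 16.6 (5.51 to 81.9). Without WT replicate 3 Il23a rose by 2.445 on the log2 scale in that comparison. It was not listed in PN against WT, where the fit over all 9 libraries gave 0.95 ± 0.74.

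Tslp, an epithelial alarmin that acts on dendritic cells and type 2 immune cells (ENSMUSG00000024379, chr18:32815383-32819799), had 4.80, 4.71 and 5.58 CPM in PCN-labelled libraries, 3.03, 2.83 and 2.75 CPM in PN, and 1.80, 1.16 and 2.52 CPM in WT, in 3 groups that did not overlap. It rose 2.75-fold in PCN-labelled against WT libraries (log2 fold change 1.46 ± 0.28, edgeR adjusted p = 0.00068) and 1.75-fold in PCN-labelled against PN (0.81 ± 0.19, edgeR adjusted p = 0.00149). PN against WT was not listed, and the fit over all 9 libraries gave 0.64 ± 0.27. The gene 4930455D15Rik overlaps it on the opposite strand, so reads of the pair cannot be told apart.

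Lif, leukemia inhibitory factor, an IL-6 family cytokine that signals through gp130 and STAT3 (ENSMUSG00000034394, chr11:4257557-4272514), shared the PN minimum of Cxcl16. It had 12.3, 12.1 and 14.1 CPM in PCN-labelled libraries, 7.83, 7.42 and 5.55 CPM in PN, and 11.5, 10.6 and 8.48 CPM in WT, with no overlap between groups. It rose 1.86-fold in PCN-labelled against PN libraries (log2 fold change 0.89 ± 0.14, edgeR adjusted p = 5.9e-06). In PN against WT it fell by 0.55 ± 0.18 on the log2 scale (edgeR adjusted p = 0.0257). That call was lost with TMM scaling (edgeR adjusted p = 0.053) and without PN replicate 2 or 3 or WT replicate 1 or 2 (0.0518, 0.138, 0.103 and 0.092). PCN-labelled against WT was not listed, and the fit over all 9 libraries gave 0.33 ± 0.15.

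Of the colony-stimulating factors, Csf3, or G-CSF, the growth factor of neutrophils (ENSMUSG00000038067, chr11:98701263-98703629), had 108, 101 and 102 counts (5.35, 5.80 and 5.48 CPM) in PCN-labelled libraries, 4, 8 and 20 counts (0.237, 0.471 and 1.06 CPM) in PN, and 0 counts in all 3 WT libraries. The groups did not overlap, and PN replicate 3 held more counts than the other PN libraries together. With 3 counts assumed over the WT group as a floor, PCN-labelled libraries were at least 82.5-fold higher (edgeR adjusted p = 2.55e-07) and PN at least 9.05-fold higher. The adjusted p of PN against WT was 0.00166 in the authors' deposited table, and with no filter on low counts the edgeR adjusted p was 0.00514. Leaving out 1 WT library puts the same floor over fewer libraries and gave bounds of 54.7 to 55.4 for PCN-labelled libraries and none above 6.08 for PN libraries, and without PN replicate 3 the PN bound was 5.29. PCN-labelled libraries stood 9.07-fold above PN (log2 fold change 3.18 ± 0.30, edgeR adjusted p = 1.19e-09), or 15.3-fold without PN replicate 3. Without PN replicate 1 that log2 fold change was 2.82.

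Csf1, or M-CSF, the growth factor of macrophages (ENSMUSG00000014599, chr3:107741048-107760469, minus strand), had 12.6, 15.3 and 16.5 CPM in PCN-labelled libraries, 5.93, 3.95 and 3.86 CPM in PN, and 3.47, 3.88 and 3.18 CPM in WT. PCN-labelled libraries lay apart, while the lowest PN library, at 3.86 CPM, was below the highest WT library, at 3.88 CPM. It rose 4.21-fold in PCN-labelled against WT libraries (log2 fold change 2.07 ± 0.17, edgeR adjusted p = 3.78e-07) and 3.23-fold in PCN-labelled against PN (1.69 ± 0.16, edgeR adjusted p = 1.74e-09). PN against WT was not listed, and the fit over all 9 libraries gave 0.38 ± 0.21. Its promoter, at chr3:107760470-107760719 (minus strand, GRCm38.p6), is shown for its NF-kB consensus match, in capitals 154 bases before the start and farther upstream than those of Cxcl1, Cxcl2, Cxcl3 and Ccl20.
Csf1: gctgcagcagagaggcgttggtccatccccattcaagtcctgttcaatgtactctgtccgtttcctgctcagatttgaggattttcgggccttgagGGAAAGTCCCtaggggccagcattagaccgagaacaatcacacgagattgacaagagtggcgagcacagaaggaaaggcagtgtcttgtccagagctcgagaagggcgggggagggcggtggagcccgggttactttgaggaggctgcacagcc

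RefSeq windows were found for 10 of the 16 genes. The NF-kB consensus stood in the 250 bases before the start of 6 of those 10 (Cxcl1, Cxcl2, Cxcl3, Ccl20, Csf1 and Lif), beside 7.25% of all 32851 windows. The AP-1 letters TGANTCA, on both strands, stood before Lif and in 1 of several windows of Ccl27a, beside 6.75% of all windows. TATAAA on the gene's strand stood before Cxcl3, Tnf and Cx3cl1, beside 7.59%. It began 30 and 29 bases before the start of Cxcl3 and Tnf, but 6 bases before that of Cx3cl1. The Cx3cl1 window ends at position 94772179, inside the gene as the authors place it, from 94772009, so that distance is counted from RefSeq. Of the 6 genes with the NF-kB letters, 5 rose in PCN-labelled against WT libraries, and Lif was not listed there. Of the 4 without them, Tnf and Cx3cl1 rose in that comparison, and Ccl6 and Ccl27a have no values in PCN-labelled libraries. All 12 members listed in that comparison were higher, so these tallies do not set genes with the letters apart from those without. Cxcl1, Cxcl2 and Cxcl3 are also close paralogs that share the same letters, so they are not separate cases.

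**Figure D3:**
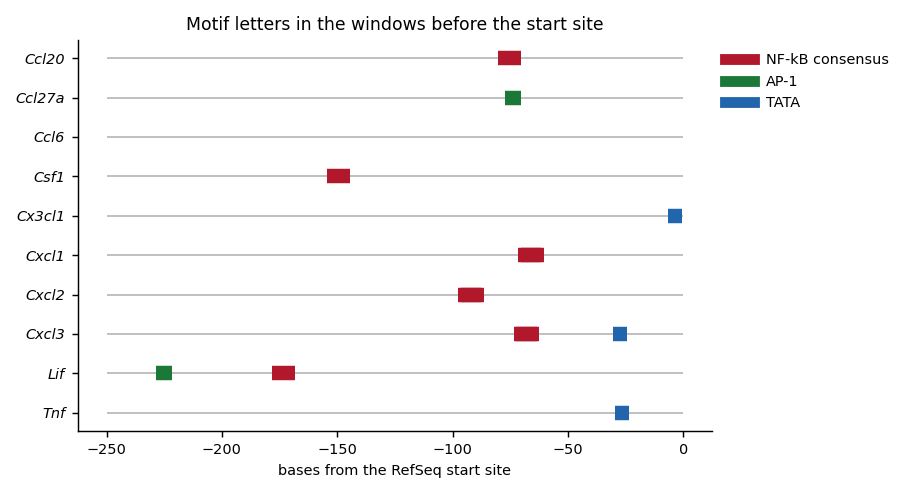
Position of the NF-kB consensus, AP-1 and TATA letters in the 250 bases before the RefSeq start of the 10 genes with a window, in bases from the start. The NF-kB matches of Cxcl1, Cxcl2, Cxcl3 and Ccl20 lie closer to the start than those of Csf1 and Lif, and Tnf holds none in this window.

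Per unit of gene length the order of the members differed between groups. Summed over the 14 members with counts in every library, the level was 76.6 ± 4.88 FPKM in PCN-labelled libraries, 41.9 ± 0.668 FPKM in PN and 30.8 ± 1.91 FPKM in WT (SD, n = 3 each). Cx3cl1 made up 42.9% ± 0.369 of it in PCN-labelled libraries, 60.3% ± 1.68 in PN and 73.8% ± 3.96 in WT. Without Cx3cl1 the sum was 43.7 ± 3.04 FPKM in PCN-labelled libraries, 16.6 ± 0.958 FPKM in PN and 8.02 ± 0.726 FPKM in WT. Cxcl1, Cxcl2, Cxcl3 and Cxcl5 together held 18.4 ± 1.05 FPKM in PCN-labelled libraries, 8.64 ± 0.820 FPKM in PN and 1.19 ± 0.577 FPKM in WT. With Ppbp, which is no member, the sum of the CXCR2 ligands was 42.7 ± 2.72 FPKM in PCN-labelled libraries, 28.5 ± 5.94 FPKM in PN and 58.5 ± 7.09 FPKM in WT, so the order of the groups turned, with WT highest. Ppbp alone held 24.3 ± 2.19 FPKM in PCN-labelled libraries, 19.8 ± 5.76 FPKM in PN and 57.3 ± 6.71 FPKM in WT.

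Cx3cl1 ranked first by mean FPKM in each group, at 32.8 ± 1.85 in PCN-labelled libraries, 25.3 ± 0.361 in PN and 22.8 ± 2.55 in WT. Cxcl1 came next in PCN-labelled libraries, at 14.6 ± 0.131 FPKM, and in PN, at 7.40 ± 0.551 FPKM, while in WT, at 0.784 ± 0.490 FPKM, it stood behind Lif, Cxcl16 and Tslp. Csf3 ranked 4 of 14 in PCN-labelled libraries and last in WT. After Csf3 in PCN-labelled libraries came Ccl2 (2.95 ± 0.343 FPKM), Lif (2.95 ± 0.257), Csf1 (2.80 ± 0.379), Tnf (2.68 ± 0.656) and Ccl20 (2.55 ± 0.347). From Ccl2 to Ccl20, successive genes differed by less than the spread between libraries.

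**Figure D4:**
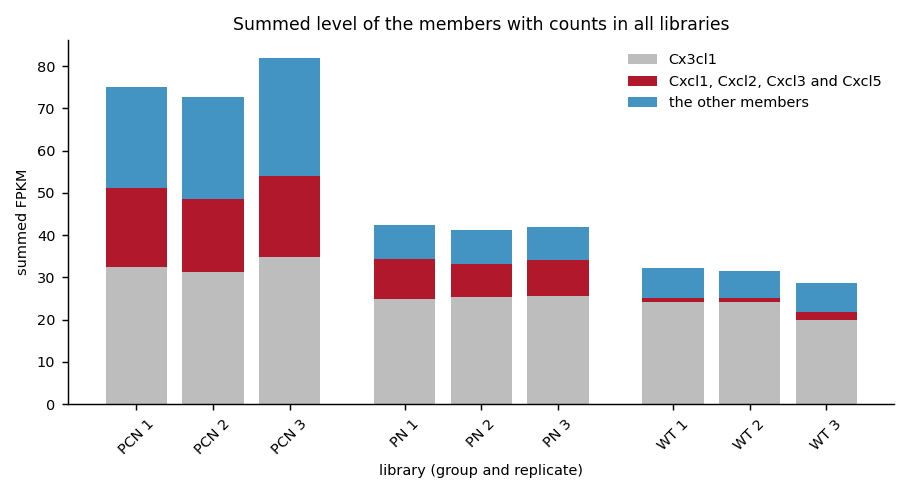
FPKM summed over the 14 members with counts in every library, 1 bar per library, split into Cx3cl1, the sum of Cxcl1, Cxcl2, Cxcl3 and Cxcl5, and the other members; Ppbp is no member and is not drawn. The bars of the PCN-labelled libraries are the tallest, and the band of Cxcl1, Cxcl2, Cxcl3 and Cxcl5 is the thinnest of the 3 in WT.

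Genes around this pathway were read from lists chosen with earlier results of these data known. As background, 38.1%, 38.6% and 24.5% of genes were listed in PN against WT, PCN-labelled against WT and PCN-labelled against PN. In that order edgeR called 99.3%, 98.6% and 98.9% of the listed genes in its fits, so a call adds little to a listing. The receptor list held 37 receptors of chemokines and cytokines, not all of them receptors of a member. Of these, 8 were listed in PN against WT (3 higher, 5 lower) and 7 in PCN-labelled against WT (2 higher, 5 lower). In PCN-labelled against PN 4 were listed (2 in each direction), and edgeR called each of the listed receptors. Their median log2 fold change in the authors' deposited tables was -2.22, -3.69 and -0.01 in that order. Ackr3, a scavenging receptor of CXCL12, averaged 0.088 CPM in PCN-labelled libraries, 0 counts in PN and 1.25 CPM in WT, so that WT was at least 22.0-fold higher than PN, or at least 14.1-fold higher without PN replicate 3, where the same floor covers fewer libraries. Cxcr3, a receptor for interferon-induced CXC chemokines, averaged 0.093 CPM in PCN-labelled libraries, 0.018 CPM in PN and 1.23 CPM in WT. Csf2ra, the GM-CSF receptor alpha chain, averaged 0.038, 0.197 and 1.34 CPM in PCN-labelled, PN and WT libraries, and Ccr9, the receptor of CCL25, averaged 0.087, 0.118 and 1.14 CPM. All 4 fell in both comparisons with WT and were near 0 in the knockout-labelled libraries, but no ligand named here for them is a member. Receptors of members, chosen after their values were seen, went both ways. Cxcr2 fell, as given above. Il6st and Lifr, receptors of Lif, rose by 0.37 and 0.48 in PN against WT and by 0.88 and 0.65 in PCN-labelled against WT. Crlf2, a receptor of Tslp, rose by 0.81 in PN against WT and fell by 0.54 in PCN-labelled against PN.

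Of 30 genes of NF-kB and IL-17 signalling, 15 were listed in PCN-labelled against WT libraries, 12 higher and 3 lower, and 15 in PCN-labelled against PN, 13 higher and 2 lower. In PN against WT 8 were listed, 5 higher and 3 lower, and edgeR called all of these. The median log2 fold changes in the authors' deposited tables were 0.56, 0.41 and 0.36, beside -0.28, 0.16 and -0.28 over all genes of the tables. Bcl3, a nuclear partner of NF-kB p50 and p52, shared the PN minimum of Cxcl16 and Lif: it averaged 52.4 CPM in PCN-labelled libraries, 22.1 CPM in PN and 70.4 CPM in WT. It rose by 1.24 ± 0.07 in PCN-labelled against PN libraries (edgeR adjusted p = 3.98e-14) and fell by 1.66 ± 0.11 in PN against WT (edgeR adjusted p = 6.55e-08). Tlr2, a receptor for bacterial lipoproteins, rose by 1.63 ± 0.34 in PCN-labelled against WT libraries (edgeR adjusted p = 0.00161). Tlr4, the lipopolysaccharide receptor, fell by 1.23 ± 0.20 there (edgeR adjusted p = 0.000166) and by 1.29 ± 0.19 in PN against WT (edgeR adjusted p = 0.000104). Il1r1, the IL-1 receptor, fell by 1.16 ± 0.27 in PN against WT (edgeR adjusted p = 0.00334).

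Tnfaip3, Nfkbiz and Nfkbia are NF-kB targets that act back on the pathway, and were chosen after their values were seen. Tnfaip3, which encodes the deubiquitinase A20, averaged 35.1 CPM in PCN-labelled libraries, 15.3 CPM in PN and 17.9 CPM in WT, and rose by 1.19 ± 0.10 against PN (edgeR adjusted p = 6.33e-11) and by 0.97 ± 0.12 against WT (edgeR adjusted p = 1.29e-05). Nfkbiz, a co-activator of IL-17 target genes, averaged 52.3, 33.3 and 33.0 CPM in PCN-labelled, PN and WT libraries. Nfkbia, which encodes IkB alpha, averaged 121 CPM in PCN-labelled libraries and 119 CPM in PN, against 77.9 CPM in WT. Tnfaip3 and Nfkbiz thus had the pattern of Tnf, high in PCN-labelled libraries alone, whereas Nfkbia stood at like means in both knockout-labelled groups.

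**Figure D5:**
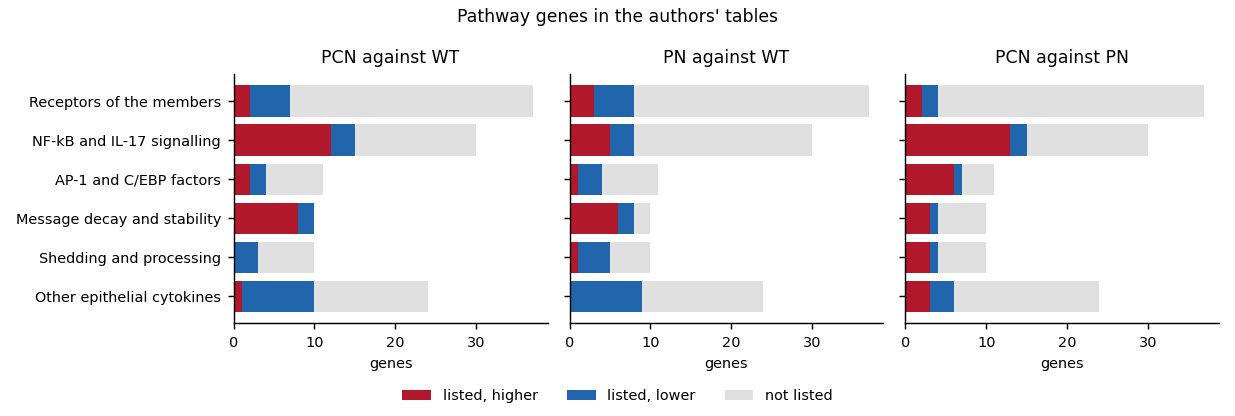
Number of genes of each pathway list that were listed higher, listed lower or not listed in the authors' tables, for PCN-labelled against WT, PN against WT and PCN-labelled against PN libraries. NF-kB and IL-17 signalling has 12, 5 and 13 genes listed higher, and the other epithelial cytokines have 9, 9 and 3 listed lower.

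Of 11 AP-1 and C/EBP factors, 7 were listed in PCN-labelled against PN libraries, 6 higher and 1 lower, while 4 were listed in each comparison with WT, 2 higher and 2 lower in PCN-labelled and 1 higher and 3 lower in PN. Jun, an AP-1 subunit, averaged 55.5 CPM in PCN-labelled libraries, 15.7 CPM in PN and 59.6 CPM in WT, and rose by 1.82 ± 0.08 in PCN-labelled against PN libraries (edgeR adjusted p = 4.81e-17). Cebpd, a C/EBP factor of the acute phase, averaged 14.1, 7.20 and 6.64 CPM in PCN-labelled, PN and WT libraries and rose by 1.09 ± 0.16 in PCN-labelled against WT (edgeR adjusted p = 7.14e-05). Fos averaged 18.2, 21.8 and 42.4 CPM in PCN-labelled, PN and WT libraries, and Fosb averaged 2.18, 2.42 and 0.736 CPM, so these AP-1 subunits moved in opposite directions against WT.

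Messages of Tnf, Cxcl1 and Csf3 carry elements at which decay proteins act. All 10 genes listed for message decay and stability were listed in PCN-labelled against WT libraries, 8 higher and 2 lower, against 6 higher and 2 lower in PN against WT and 3 higher and 1 lower in PCN-labelled against PN, and edgeR called each. Zc3h12a, which encodes the RNase Regnase-1, averaged 39.5 CPM in PCN-labelled libraries, 13.6 CPM in PN and 16.1 CPM in WT, and rose by 1.30 ± 0.11 against WT (edgeR adjusted p = 3.4e-07). Zfp36, which encodes tristetraprolin, averaged 35.8, 33.3 and 56.7 CPM in PCN-labelled, PN and WT libraries, and its relative Zfp36l1 averaged 52.2, 72.0 and 122 CPM. Zfp36l2 averaged 324, 290 and 205 CPM in the same order. Zfp36 and Zfp36l1 were thus the 2 lower genes, and Zfp36l2 was higher.

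Of 10 genes for shedding and processing of the members, 3 were listed in PCN-labelled against WT, all lower, 5 in PN against WT, 1 higher and 4 lower, and 4 in PCN-labelled against PN, 3 higher and 1 lower, and edgeR called each. Adam17, the protease that releases TNF and fractalkine, averaged 65.6 CPM in PCN-labelled libraries, 113 CPM in PN and 132 CPM in WT, and fell by 1.00 ± 0.08 in PCN-labelled against WT libraries (edgeR adjusted p = 4.62e-07). Dpp4, which trims several chemokines, averaged 2.12, 0.962 and 4.14 CPM in PCN-labelled, PN and WT libraries. Adam8 and Adam9, of the same protease family, averaged 10.0, 4.12 and 7.22 CPM and 92.3, 98.2 and 120 CPM in PCN-labelled, PN and WT libraries.

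Other epithelial cytokines listed against WT were mostly lower, whereas the listed members were mostly higher. Several members were near 0 in WT and could hardly be listed as lower, which limits this contrast. Of 24, 10 were listed in PCN-labelled against WT, 1 higher and 9 lower, of which edgeR called 8, all lower. In PN against WT 9 were listed, all lower, of which edgeR called 8, and in PCN-labelled against PN 6 were listed and called, 3 in each direction. Il33, an epithelial alarmin, averaged 5.69 CPM in PCN-labelled libraries, 13.3 CPM in PN and 519 CPM in WT, and fell by 6.51 ± 0.12 in PCN-labelled against WT (edgeR adjusted p = 3.48e-13). Tgfb3 averaged 1.30, 0.526 and 11.9 CPM in PCN-labelled, PN and WT libraries, Il1a, another alarmin, averaged 1.42, 0.473 and 7.41 CPM, and Il34, a ligand of the CSF1 receptor, averaged 1.85, 0.833 and 3.60 CPM. Il34 was therefore highest in WT, while Csf1, the other ligand of that receptor, was highest in PCN-labelled libraries.

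The genes whose levels most resembled those of 5 members over the 9 libraries were taken by Pearson's r of log2(CPM + 0.5) among 6185 genes, as a description. The libraries share group, depth and processing, and most of the likeness is that of 3 group levels. Itga2, Flrt1 and Cadps2 were closest to Ccl2 (r of 0.995, 0.993 and 0.993). Ntrk2, Abl1 and Gli3 were closest to Ccl20 (0.994, 0.992 and 0.988), and Ly75, Fam167a and Rnaseh2b to Cxcl2 (0.981, 0.977 and 0.975). Timeless, Abl1 and Itga2 were closest to Csf3 (0.994, 0.987 and 0.987), and Ikbke, Lamb2 and Adgrb1 to Tnf (0.991, 0.990 and 0.990). None of these is another member.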

How the data were processed

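RNA-seq libraries of 3 PCN-labelled, 3 PN and 3 WT organoid cultures were compared pair by pair. CASAVA, DESeq and the build GRCm38 (mm10) are named, per the submitters' processing notes. The read aligner and the counter are not given in the sources used. A gene stands in a deposited table if its adjusted p was below 0.05 in the authors' test of that pair. The read counts are the authors' raw counts per gene, per the file headers. A size factor for each library turns these counts into the deposited normalized signal. The authors' FPKM values stand beside them, per the file headers, and their library sizes, recovered from counts, FPKM and gene lengths, are constant but not whole numbers, so they are scaled sizes and not read totals. The log2 fold change and the p-value with its adjusted form are the authors' deposited values, per the file headers.

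Each table was refitted with edgeR 4.0.16 in R 4.3.3 by its robust quasi-likelihood F test after filterByExpr, scaled by the authors' size factors. Adjusted p was Benjamini-Hochberg over the number of genes recovered from the authors' adjusted p-values, 14758 for PCN-labelled against PN, 17300 for PCN-labelled against WT and 17165 for PN against WT, with a threshold of 0.05. The biological coefficients of variation were 0.0505, 0.0925 and 0.0870 in that order. Members not listed in a pair were given values from 1 fit over all 9 libraries and were never counted as called. That fit used the FPKM library sizes in place of the authors' size factors, on genes with counts in all 9 libraries. Alternatives were TMM scaling, FPKM library sizes, DESeq2 1.42.0, no filter, a replicate block, 1 fit over 9 libraries and leaving out each library. A group of 0 counts was given a floor of 3 counts over the group, and a group of 1 to 3 counts an exact 95% interval, which cover counting error only. The scripts were tested on simulated data. Promoter windows are from RefSeq (GRCm38.p6).

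The members and lists were chosen with earlier results of these data known. Every member is named. From each list up to 4 genes past the threshold with the largest change against WT and at least 1 CPM are named, and the 3 closest genes to Ccl2, Ccl20, Cxcl2, Csf3 and Tnf. Genes outside that rule are said to be chosen after their values were seen.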

Additional observations from a re-analysis of the deposited data

How the results depend on the processing

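Of 72 alternative counts of members called, 67 stayed within 1.5 times the main count. The other 5 are the members called lower in PN against WT, which numbered 2 (Cxcl16 and Lif) and became 1 with TMM scaling and 1 to 2 when 1 library was left out. DESeq2 and the fit with no filter each called 6 higher and 3 lower in that pair, against 4 and 2, and leaving out 1 library gave 3 to 5 higher. The counts in the other pairs, 12 and 13 higher and 0 lower, were the same under each alternative. They had little room to change, because only members already listed for the pair were counted. Of all listed genes in those fits, edgeR called 98.6% in PCN-labelled against WT and 98.9% in PCN-labelled against PN. Of 371 alternative values of single genes 0 changed direction, and 8 lost the call, all of them Ccl27a or Lif in PN against WT (edgeR adjusted p of 0.00158 to 0.0783 and of 0.00174 to 0.138). The cause was not tested. TMM scaling moved the log2 fold changes by a median over genes of 0.06 in both comparisons with WT and of -0.02 in PCN-labelled against PN. With the replicate block the calls were unchanged, at 4 higher and 2 lower in PN against WT, 12 higher in PCN-labelled against WT and 13 higher in PCN-labelled against PN. Same-numbered libraries deviated together with correlations of 0.054 to 0.138 in PN against WT, -0.181 to -0.061 in PCN-labelled against WT and -0.12 to -0.041 in PCN-labelled against PN, so the numbers were not taken to pair the libraries, although in PN against WT each library correlated best with its own number. In comparisons with WT, depth limits Csf3, Ccl20 and Ccl6, whose lower group holds 0 to 3 counts, to bounds or wide intervals. Tnf, Cxcl2, Ccl2, Cxcl3 and Il23a held 5 to 10 counts over the WT group, so their folds against WT also rest on few counts.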
